A study of Homo sapiens with 6 samples.

Results

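The genes of the AP-1 and early response transcription factors FOS, FOSB, FOSL1, FOSL2, JUN, JUNB, JUND, ATF3 and EGR1 were examined in HGC-27, a gastric cancer line of human origin, with and without the peptide GLUP. These 9 genes were taken by symbol from 62443 genes of the deposited table, and all 9 were found. The RNA sequencing series holds 3 Con libraries, which the labels give as untreated and the methods of the study as exposed to the buffer of the peptide, and 3 libraries of cells given GLUP. GLUP is a cyclic peptide built on the TEAD4-binding motif of VGLL4 and designed to hold the Hippo pathway factor TEAD4 in assemblies with itself. The labels give neither dose nor time, and the text of the study gives more than a single treatment time, each of many hours. A brief early response that had ended by then would not be seen in these libraries. HGC-27 is a single line, the labels do not say whether the libraries came from separate cultures, and the p-values therefore measure only the spread between these samples. The question behind the comparison was which transcripts respond to the peptide. Of the 9 genes, ATF3 and JUND averaged 1 FPKM or more across the 6 libraries (FPKM counts fragments scaled to transcript length and library size), the other 7 lay below it, and none passed the test between GLUP and Con.

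AP-1 is a dimer of basic leucine zipper proteins. A JUN protein pairs with another JUN or with a FOS protein, and the dimer binds the sequence called TRE, whereas dimers that contain ATF proteins prefer the longer cyclic AMP response element, CRE. FOS, FOSB, JUN, JUNB, ATF3 and EGR1 are early response genes, whose transcripts rise within minutes to hours of a growth factor or stress signal and then decay, while JUND is expressed more steadily. In many epithelial cancers AP-1 and TEAD proteins occupy enhancers together, which is why these genes were set beside a peptide aimed at TEAD4.

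The DNA before the start sites of these genes is shown for the letters of such elements. Windows of 250 bases before and 50 bases after the start (RefSeq, build GRCh38.p14) were matched by symbol for 8 of the 9 members, all but FOSL1. The last 150 bases before the start are shown for the best expressed members, ATF3 and JUND, and for 3 classical early response genes that were low here, JUN, FOS and EGR1. Capitals mark, on either strand, the CRE type site TGANNTCA, its short core TGACG, the CArG box bound by the serum response factor, and the TATA box TATAAA; the TRE, TGANTCA, occurs in none of these stretches. The first 2 patterns can share bases.
ATF3 (upstream of its 2 starts), chr1:212565257-212565406, plus strand: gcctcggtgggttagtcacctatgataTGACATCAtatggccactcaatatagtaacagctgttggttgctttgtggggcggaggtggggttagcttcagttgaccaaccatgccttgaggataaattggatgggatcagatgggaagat
JUND, chr19:18281623-18281772, minus strand: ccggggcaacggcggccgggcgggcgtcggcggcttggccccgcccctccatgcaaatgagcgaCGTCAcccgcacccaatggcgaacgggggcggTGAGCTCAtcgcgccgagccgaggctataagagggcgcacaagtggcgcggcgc
JUN, chr1:58784048-58784197, minus strand: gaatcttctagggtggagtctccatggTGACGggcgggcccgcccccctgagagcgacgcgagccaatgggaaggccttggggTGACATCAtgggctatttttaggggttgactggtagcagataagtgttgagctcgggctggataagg
FOS, chr14:75278678-75278827, plus strand: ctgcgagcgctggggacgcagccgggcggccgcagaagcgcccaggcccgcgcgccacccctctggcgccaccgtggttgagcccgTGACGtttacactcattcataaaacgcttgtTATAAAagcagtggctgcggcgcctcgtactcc
EGR1, chr5:138465329-138465478, plus strand: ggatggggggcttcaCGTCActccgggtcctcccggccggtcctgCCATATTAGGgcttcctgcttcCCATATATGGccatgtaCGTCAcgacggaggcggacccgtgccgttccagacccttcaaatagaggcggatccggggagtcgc

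JUN and the ATF3 stretch carried the same CRE type letters, TGACATCA, beginning at position -67 of JUN and -123 of ATF3, counted back from the start. The window of the other ATF3 start held no CRE type site and, of the motifs sought, only a TATA box at -230. Which of these starts the cells use was not examined. JUND held the palindrome TGACGTCA further upstream, at position -200. EGR1 held CArG boxes at positions -105 and -83, and no other member window had this motif. Sites more than 250 bases before a start were not sought, so a CArG box there would be missed. FOS and FOSB each carried the short core ahead of a TATA box, at positions -64 and -33 in FOS and -60 and -30 in FOSB. JUNB had the same pair at -137 and -31. The only TRE of any member window was TGACTCA in FOSL2, from position 5 after the start. None of the member windows held the TEAD motif M-CAT, CATTCC. Of all 35116 windows of this length, 24.6% held the short core, 11.5% the CRE type site, 11.5% the TATA box, 7.71% the TRE, 14.0% the M-CAT and 1.29% a CArG box. These letters are descriptions of the windows, and no binding was measured here.

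The libraries had FPKM totals of 909735 to 965147. Read counts were not used here, but the low values of single-transcript genes piled up at a step that corresponds to about 25400000 to 30600000 fragments per library, or to that many reads if the step was a read of a pair, which was not settled; the fragment numbers below are approximate for the same reason. Con replicate 2 stood apart, with a mean correlation of 0.898 to the other libraries across the 7406 tested genes, against 0.954 to 0.964 for each of the others. Vimentin was at 222.2 to 387.2 FPKM, and the matrix genes LUM and DCN at 47.2 to 76.7 and 16.0 to 41.3 FPKM. The mesenchymal marker FN1 was at 0.644 to 3.25 FPKM and CDH2 at no more than 0.0508 FPKM, while COL1A1 was at 2.86 to 6.90 FPKM. The immune markers CD3E and CD79A and the endothelial marker CDH5 were listed at 0 throughout, as were the gastric mucosa genes MUC6, TFF1, TFF2 and GKN1. The immune markers LYZ, PTPRC and CD68 had highest values of 0.250, 0.0394 and 0.0017 FPKM, and endothelial VWF 0.0045 FPKM. For the gastric mucosa genes CLDN18 and MUC5AC the highest values were 0.0630 and 0.0128 FPKM. E-cadherin (CDH1) and EPCAM reached at most 0.0799 and 0.124 FPKM, so these defining epithelial genes were at or near 0. The 5 epithelial markers summed to 2.97 to 3.70 FPKM in Con and 5.18 to 6.06 FPKM in GLUP. KRT8, KRT18 and KRT19 made up this difference, none passed the test, and their part in the results below was not tested.

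The order of the levels was examined first, on the FPKM scale, which is per length. The part of G and C content and of overlapping genes in this order was not tested, so the order is approximate. ATF3 was the highest, with a mean of 4.35 FPKM over the 6 libraries, followed by JUND at 1.24, JUNB at 0.635, FOS at 0.406, FOSL2 at 0.255, EGR1 at 0.164, FOSL1 at 0.0878, JUN at 0.0840 and FOSB at 0.00906 FPKM. The ranges over libraries did not overlap between ATF3 and JUND. They overlapped between every other pair of neighbours in this order. Taken within each library, JUND was above JUNB in all 6. JUN was also above FOSB in all 6, though by only 0.0572 against 0.0544 FPKM in Con replicate 3. The remaining neighbours changed order between libraries. Among the 31444 genes above 0 in any library, the mean of ATF3 stood at percentile 88.8 and that of JUN at percentile 47.5.

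**Figure D1:**
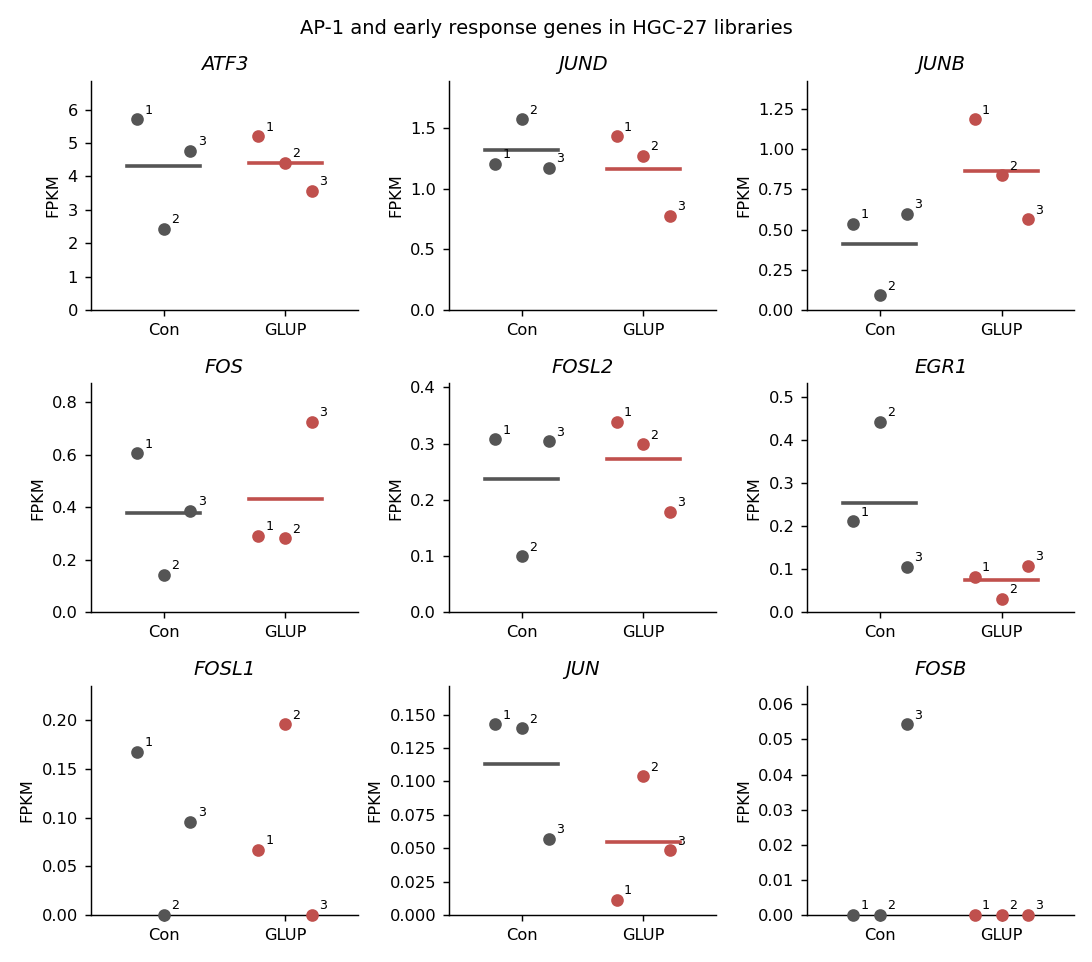
FPKM of each of the 9 genes (vertical axes, linear and starting at 0, each with its own range) in the 3 Con and 3 GLUP libraries; each point is a library with its replicate number, and lines are group means, left out for FOSL1 and FOSB, which have values listed at 0. The groups overlap for all 9 genes, and Con replicate 2 is the lowest library for ATF3, JUNB, FOS and FOSL2.

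The JUN family supplies the partner that every classical AP-1 dimer needs. JUND (ENSG00000130522, chromosome 19, 18390504 to 18392432, minus strand, GRCh37), the steadily expressed member, was at 1.21, 1.57 and 1.17 FPKM in the Con libraries and at 1.43, 1.27 and 0.778 FPKM in the GLUP libraries, here and below in the order of the replicate numbers. The groups overlapped, and the lowest value was that of GLUP replicate 3. Its means were 1.32 ± 0.221 FPKM in Con and 1.16 ± 0.341 FPKM in GLUP (SD, n = 3 each), with a difference on the log2(FPKM + 1) scale of -0.11 (SE 0.22, 95% interval -0.61 to 0.39, adjusted p = 0.767, limma). The sign of this difference turned to 0.07 when libraries were rescaled to a common median. With the trend in G and C content and length removed, the difference was -0.28. Its transcript is 69.9% G and C, and the 27 tested genes within 2 percentage points of that content had a median difference of 0.13.

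JUNB (ENSG00000171223, chromosome 19, 12902300 to 12904129, plus strand) encodes a JUN protein that can hold back activation by JUN. It was at 0.536, 0.0918 and 0.597 FPKM in Con and at 1.19, 0.838 and 0.563 FPKM in GLUP. Only GLUP replicate 3 fell inside the range of Con, by a small margin below Con replicate 3. The means were 0.408 ± 0.276 and 0.862 ± 0.312 FPKM (SD, n = 3 each). The difference of 0.41 (SE 0.21, 95% interval -0.10 to 0.92) was the largest positive difference among the 9 members, and it did not pass (adjusted p = 0.605, limma without a filter). It was 0.24 without Con replicate 2, where JUNB was at 12.3% of its mean in the other libraries. On a scale with a pseudocount of 0.1 it was 1.08, and it did not pass there either. After rescaling to a common median the groups no longer overlapped, by 0.632 FPKM in Con replicate 3 against 0.641 FPKM in GLUP replicate 3. HOOK2 lies over part of the locus on the opposite strand, and strand-specific counting is not stated, so that the JUNB values are uncertain.

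JUN itself (ENSG00000177606, chromosome 1, 59242517 to 59249720, minus strand), the founding member of the family, was close to the limit of detection. It was at 0.143, 0.140 and 0.0572 FPKM in Con and at 0.0114, 0.104 and 0.0486 FPKM in GLUP, values that correspond to about 1 to 14 fragments per library. The GLUP values of 0.0114 and 0.0486 lay below all Con values, and the third lay within the Con range. The difference was -0.08 (SE 0.05, 95% interval -0.21 to 0.05, adjusted p = 0.622, limma without a filter).

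Together the 3 JUN genes summed to 1.89, 1.80 and 1.83 FPKM in Con and to 2.63, 2.21 and 1.39 FPKM in GLUP. The Con sums were tightly grouped, and the GLUP sums lay on both sides of them. JUND made up 64.0%, 87.2% and 64.2% of the sum in Con and 54.4%, 57.5% and 56.0% in GLUP. It was thus the most abundant JUN transcript in each of the 6 libraries, with its highest share in Con replicate 2, where JUNB was lowest.

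The FOS proteins cannot pair among themselves and act only with a JUN partner. FOS (ENSG00000170345, chromosome 14, 75745529 to 75748933, plus strand), the prototype of early response genes, was at 0.605, 0.143 and 0.387 FPKM in Con and at 0.291, 0.282 and 0.725 FPKM in GLUP. Both groups spread widely, and the highest library was GLUP replicate 3. The means were 0.378 ± 0.231 and 0.433 ± 0.253 FPKM (SD, n = 3 each), with a difference of 0.06 (SE 0.19, 95% interval -0.41 to 0.52, adjusted p = 0.892, limma without a filter). Without Con replicate 2 the difference was -0.07.

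FOSL2 (ENSG00000075426, chromosome 2, 28615315 to 28640184, plus strand), which encodes the FOS relative FRA-2, was at 0.308, 0.09996 and 0.304 FPKM in Con and at 0.339, 0.299 and 0.179 FPKM in GLUP. Apart from the low Con replicate 2 and GLUP replicate 3, the other 4 libraries were between 0.299 and 0.339 FPKM. The difference was 0.04 (SE 0.12, 95% interval -0.26 to 0.35, adjusted p = 0.868, limma without a filter), and it was -0.04 without Con replicate 2. FOSL2-AS1 overlaps the locus on the other strand, and ENSG00000270640 overlaps it on the same strand.

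FOSL1 (ENSG00000175592, chromosome 11, 65659520 to 65668044, minus strand) encodes FRA-1, often the leading FOS protein of invasive carcinoma cells. Its Con values were 0.168, 0 and 0.0958 FPKM and its GLUP values 0.0670, 0.196 and 0 FPKM, or at most about 10 fragments. A library of each group was at 0, and the difference was -0.0013 (SE 0.088, adjusted p = 0.998, limma without a filter). FOSB (ENSG00000125740, chromosome 19, 45971253 to 45978437, plus strand) was listed at 0 in 5 libraries and at 0.0544 FPKM in Con replicate 3, about 6 fragments. ERCC1 overlaps FOSB on the opposite strand. Of the 7406 tested genes, which average 1 FPKM or more, 59 were also at 0 in at least 1 library. Whether a value of 0 in FOSL1 or FOSB is a failed estimate was not tested.

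The 4 FOS genes summed to 1.08, 0.243 and 0.841 FPKM in Con and to 0.697, 0.777 and 0.904 FPKM in GLUP. The GLUP sums lay between the lowest and the highest Con sum. FOS was the most abundant of them in all 3 Con libraries and in GLUP replicate 3, with shares of 46.0% to 80.2%. FOSL2 led in GLUP replicates 1 and 2, at 48.6% and 38.5%, close to the 41.8% and 36.3% of FOS there.

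**Figure D2:**
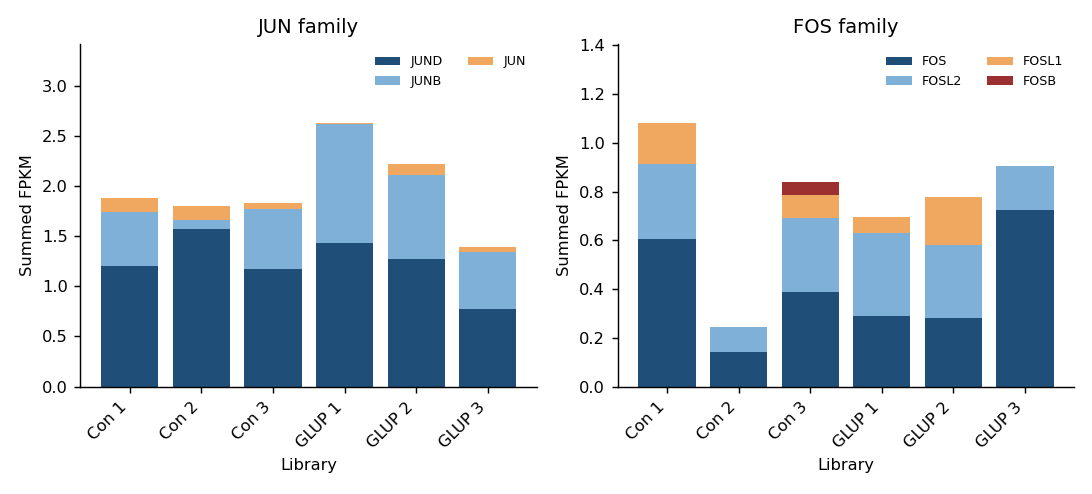
Summed FPKM (vertical axes, linear, starting at 0, with different ranges) of the JUN genes on the left and the FOS genes on the right in each of the 6 libraries, with the part of each gene as a coloured segment. JUND is the largest JUN segment in every library, and the FOS sum of Con replicate 2, 0.243 FPKM, is the lowest.

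ATF3 (ENSG00000162772, chromosome 1, 212738676 to 212794119, plus strand), a stress-induced basic leucine zipper protein that pairs with JUN proteins or with itself, was the best expressed member. It was at 5.71, 2.44 and 4.76 FPKM in Con and at 5.20, 4.41 and 3.58 FPKM in GLUP, about 120 to 332 fragments. All GLUP values lay within the Con range. The means were 4.30 ± 1.68 and 4.40 ± 0.813 FPKM (SD, n = 3 each), and the difference was 0.07 (SE 0.32, 95% interval -0.64 to 0.78, adjusted p = 0.902, limma). Without Con replicate 2, the lowest library, the difference was -0.22, and after rescaling to a common median it was 0.33. The 1053 tested genes within 2 percentage points of the G and C content of ATF3, 50.4%, had a median difference of -0.10. RN7SL512P overlaps the ATF3 locus on the opposite strand.

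EGR1 (ENSG00000120738, chromosome 5, 137801168 to 137804992, plus strand) encodes a zinc finger protein and is not an AP-1 subunit, but it answers the same kinase signals through the CArG boxes shown above. It was at 0.211, 0.443 and 0.106 FPKM in Con and at 0.0829, 0.0315 and 0.109 FPKM in GLUP, or about 3 to 35 fragments. The groups overlapped only because GLUP replicate 3 exceeded Con replicate 3 by a small margin. The means were 0.253 ± 0.172 and 0.0744 ± 0.0393 FPKM (SD, n = 3 each). The difference of -0.21 (SE 0.11, 95% interval -0.49 to 0.06) was the largest negative difference among the members and did not pass (adjusted p = 0.613, limma without a filter). It was -0.11 without Con replicate 2, where EGR1 was highest, at 409% of its mean in the other libraries. With a pseudocount of 0.1 it was -0.93, and it did not pass there either.

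**Figure D3:**
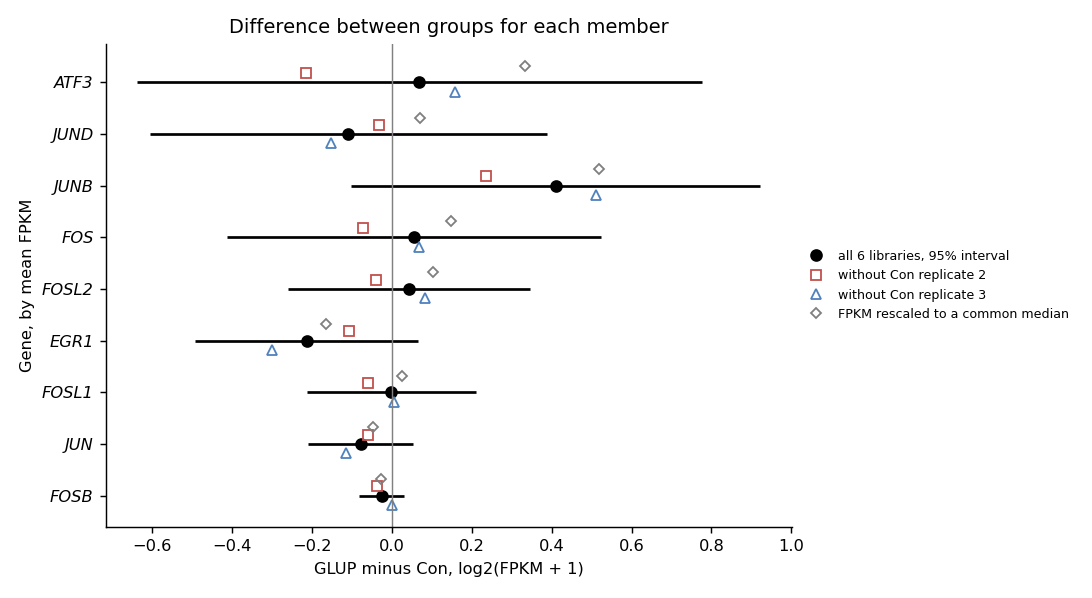
Difference of GLUP minus Con on the log2(FPKM + 1) scale (horizontal axis) for each gene, ordered by mean FPKM; black points and lines are the value and its 95% interval from all 6 libraries, and open symbols are the values without Con replicate 2, without Con replicate 3 and after rescaling to a common median. Every interval includes 0, and JUNB (0.41) and EGR1 (-0.21) have the values farthest from 0 in each direction.

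Across the members, 0 of 9 passed an adjusted p of 0.05 in limma and 0 of 9 had an unadjusted p under 0.05. No gene of the whole table passed either: the share called was 0% of the 7406 tested genes and 0% of the 31444 genes without a filter, while 21.7% of the tested genes had an unadjusted p under 0.05. The values of GLUP and Con did not overlap for 0 of 9 members, where the background was 30.3% of tested genes and 14.1% of all genes above 0 in any library. With 3 libraries against 3, an exact two-sided permutation test cannot go below 0.1. The median difference of all tested genes was -0.23, a shift that rescaling to a common median brought to 0.01. Relative to that median, the tested members ATF3 and JUND were at 0.30 and 0.12. The differences rose with G and C content, however (Spearman 0.549 over 7388 tested genes). Genes near the content of JUND had a median of 0.13, which lies above the -0.11 of JUND. With the trend in G and C content and length removed, ATF3 was at 0.14 and JUND at -0.28. Members below 1 FPKM shift less on the log2(FPKM + 1) scale, and after the rescaling JUNB was at 0.52 and EGR1 at -0.16. In such bulk samples, fewer cells with a transcript and less transcript per cell cannot be told apart.

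The 4 members that were lowest in Con replicate 2 (FOS, FOSL2, JUNB and ATF3) and the 2 that were highest there (JUND and EGR1) make this library the one that most often held an extreme. JUN was also high in it, at 192% of its mean in the other libraries. In the remaining 5 libraries ATF3 varied only from 3.58 to 5.71 FPKM and FOSL2 from 0.179 to 0.339 FPKM.

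The genes around AP-1 were then described from 5 lists of partners, upstream regulators, other early genes, feedback genes and targets. Across these lists 30 genes averaged 1 FPKM or more, and 0 of these 30 passed in limma. An unadjusted p under 0.05 was found for 4 of the 30, where the background was 21.7% of all tested genes. Of 14 other basic leucine zipper partners, 7 were tested, with a median difference of -0.20 against -0.23 for all tested genes. ATF7, a CRE-binding protein that JUN N-terminal kinases modify, was at 20.0, 39.3 and 10.4 FPKM in Con and at 5.82, 6.53 and 8.82 FPKM in GLUP. All GLUP values lay below those of Con, with a difference of -1.42 (SE 0.44, adjusted p = 0.194, limma). CREM, a cyclic AMP responsive factor, was at 28.0, 23.4 and 11.3 FPKM in Con and at 10.7, 13.2 and 12.7 FPKM in GLUP, and its groups overlapped (difference -0.65, adjusted p = 0.292, limma). MAFG and CREB5 had differences of 0.25 and 0.34, which were -0.02 and 0.18 without Con replicate 2.

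Of 21 kinases and serum response regulators, 5 were tested, and their median difference was 0.15. MAP2K2, a kinase of the growth factor signalling cascade, had 3.27, 0.658 and 6.34 FPKM in Con and 14.2, 9.80 and 6.22 FPKM in GLUP. Its difference was 1.50 (SE 0.51, adjusted p = 0.198, limma), and GLUP replicate 3 lay just within the Con range. Without Con replicate 2, the lowest library, it was 0.92. RPS6KA1 and MAPK8 had differences of 0.20 and -0.14, the first 0.10 without Con replicate 2 and the latter -0.39 without Con replicate 3. SRF, ELK1, ELK3 and ELK4, the factors that bind CArG boxes or assist there, were among the 16 genes below 1 FPKM.

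Of 24 other immediate early genes, 9 were tested, with a median difference of -0.24. ZFP36L1, an RNA-binding protein that shortens the life of early response transcripts, was at 6.41, 1.53 and 7.81 FPKM in Con and at 9.49, 9.33 and 13.1 FPKM in GLUP. Its groups did not overlap, and the difference of 1.07 (SE 0.45, adjusted p = 0.211, limma) was 0.51 without Con replicate 2. PPP1R15A, RHOB and GADD45B had differences of -0.57, -0.41 and -0.31, each with overlapping groups, and without Con replicate 2 these were -0.92, -0.27 and -0.51. Of 16 feedback inhibitors and corepressors only SPRY1 and DUSP14 reached 1 FPKM, with differences of 0.37 and 0.34. That of SPRY1 was 0.12 without Con replicate 3, and that of DUSP14 was -0.01 without Con replicate 2. The classical feedback phosphatases DUSP2 and DUSP5 were listed at 0 throughout.

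Of 24 known AP-1 targets, 7 were tested, with a median difference of -0.08. The 4 with the smallest p were VIM, HMOX1, PLAUR and TIMP1, at -0.39, -0.45, -0.32 and 0.40, and the groups overlapped for each. Without Con replicate 2 the difference of TIMP1 was -0.01, and without Con replicate 3 that of HMOX1 was -0.22. VIM also stands among the mesenchymal markers. Of the other 17 targets, 5 were listed at 0 in all 6 libraries, namely the collagenases and stromelysin MMP1, MMP13 and MMP10 and the cytokines CXCL8 and IL11.

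**Figure D4:**
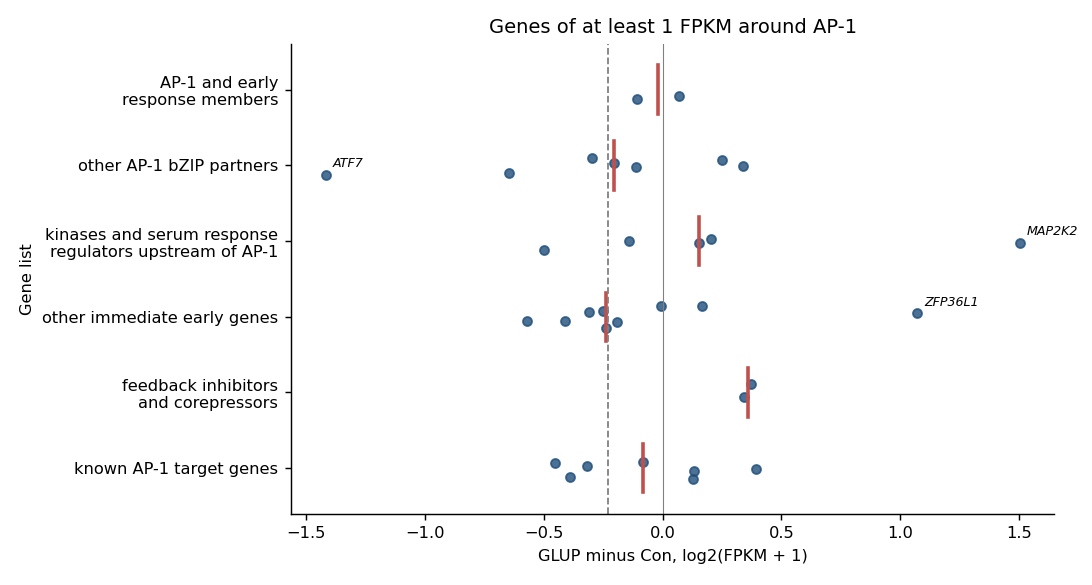
Difference of GLUP minus Con on the log2(FPKM + 1) scale (horizontal axis) for the members and the 5 lists around AP-1; each point is a gene averaging 1 FPKM or more, red bars are list medians, and the dashed line is the median of all tested genes, -0.23. The points farthest out are ATF7 at -1.42, MAP2K2 at 1.50 and ZFP36L1 at 1.07, none of which passed the test.

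With the trend in G and C content and length removed, the medians of the 5 lists were 0.19, 0.07, 0.15, 0.61 and 0.04, in the order given above, against 0.01 for all tested genes, so that the negative medians of the partners, the other early genes and the targets changed sign.

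These lists depended on Con replicates 2 and 3. Without Con replicate 2 the median of the partners was -0.03 and that of the kinases and serum response regulators -0.10, against -0.19 for all tested genes. Without Con replicate 3, 16.3% of tested genes passed as lower and 2.2% as higher in GLUP, and 3 of the 30 genes passed in limma: ATF7 (-1.87, adjusted p = 0.0289), CREM (-1.01, adjusted p = 0.0403) and MAP2K2 (1.99, adjusted p = 0.0366). None of the 9 members passed, and their smallest adjusted p was then 0.286, for EGR1. With the trend in G and C content and length removed from all 6 libraries, the difference of CREM was -0.22, that of ATF7 -1.14 and that of MAP2K2 1.15.

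Genes were also grouped by the motifs in their start windows. Of the tested genes, 5408 had a window, with a median difference of -0.25. The median was -0.28 for 323 genes with a TRE, -0.27 for 571 with a CRE type site, -0.30 for 76 with a CArG box and -0.21 for 911 with the EGR site GCGNGGGCG. It was -0.28 for 765 genes with the M-CAT and -0.28 for the 81 genes with both a TRE and an M-CAT. With the trend in G and C content and length removed, the medians of these groups lay between -0.03 and 0.02. The values of GLUP and Con did not overlap for 46.1% of the genes with a CArG box and for 30.3% to 33.1% of the genes with any other of these motifs, against 31.2% of all genes with a window, a description without a test. The motif groups differed by less than 0.1 in their medians on either scale, and enhancers outside the windows were not examined.

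The patterns most like those of the 2 best expressed members were sought across the 6 libraries among the 7405 other tested genes. TRIM14, OS9 and AHCY followed ATF3 with Pearson correlations of 0.994, 0.991 and 0.988, and 79 genes reached 0.95. TRIM56, SRGAP2 and CNOT9 followed JUND at 0.990, 0.972 and 0.964, and 8 genes reached 0.95. These correlations rest on 6 points that share their libraries, and Con replicate 2 is an extreme of both members.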

How the data were processed

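RNA of 3 Con and 3 GLUP samples of HGC-27 cells was sequenced, and the authors deposited FPKM values per gene. The submitters' processing notes name HISAT2, Cufflinks, RSEM and the build GRCh38.p10, with roles and versions not given in the sources used here, whereas the row identifiers follow a GENCODE annotation mapped to GRCh37. Gene coordinates, transcript length and G and C content came from GENCODE release 44 mapped to GRCh37 (canonical or, failing that, longest transcript), and the promoter windows from RefSeq on GRCh38.p14. Symbols matched 62162 of 62443 genes. FPKM is relative to each library's total and holds no read counts, so count tests were not used. Fragment numbers are approximate: for each library the step between 0.028 and 0.042 (FPKM times kilobases) was sought that put most low values at 1, 2 or 4 steps, and 5.22% to 7.50% of the low values lay within 1% of these.

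Values were taken as log2(FPKM + 1), a scale that understates changes of low genes. Genes averaging 1 FPKM or more (7406) were fitted with limma 3.58.1 (eBayes with trend, two-sided, R 4.3.3), without covariates, and p-values were adjusted over all genes tested by Benjamini-Hochberg. Members below 1 FPKM took their values from the same fit over all 31444 genes above 0. The fit was also run on simulated data with independent normal noise. These held no trend in G and C content and no outlying library, so they cannot show how the fit handles either. The members and lists were chosen with earlier results of these data known. Named genes were the 9 members, the 4 genes of smallest p in each list, and the 3 most correlated genes for each of the 2 highest members; other genes named as low or at 0 were chosen after their values were seen. A gene of the kinase list is not reported here. The alternatives were pseudocounts of 0.1 and 0.01, no filter, a minimum of 5 FPKM, centring on the median, quantile normalization, eBayes without trend or robust, the replicate number as a block, removal of a loess trend in G and C content and length (span 0.5), leaving out each library and, chosen after seeing the data, rescaling of FPKM to a common median.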

Additional observations from a re-analysis of the deposited data

How the results depend on the processing

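No member passed an adjusted p of 0.05 in limma under any alternative that gave a value, and the smallest adjusted p of a member was 0.286. The number of genes called, 0 as reported, was 1 with the replicate block, 1 with a stricter minimum (5 FPKM), 1 when eBayes had no trend and 1 with the G and C content and length trend removed, and ran from 0 to 1367 when libraries were left out (3 without Con replicate 2, 1367 without Con replicate 3). The 30 tested genes around AP-1 gave 0 calls in the alternatives run for them except 3 without Con replicate 3; other pseudocounts and eBayes settings were not run for these genes. Samples that share a replicate number were not paired in the fit, and the labels do not say whether they were handled together. Correlations of their deviations from the group means were 0.13, -0.01 and -0.17, which cannot settle this. The replicate block changed no call of a member. The members whose groups did not overlap numbered 2 with quantile normalization (JUNB and EGR1) and 1 after rescaling to a common median (JUNB). The share of all genes without overlap was not taken under these settings, so these counts cannot be set against a background.

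Of 139 member differences under alternatives, 15 changed sign. JUND was 0.15 when centred on the median, 0.043 with quantile normalization and 0.070 after rescaling, and ran from -0.20 to 0.025 when a library was left out. With the trend in G and C content and length removed, JUND was at -0.28, its value farthest from 0, and ATF3 at 0.14. FOSL1 was 0.0051 with quantile normalization and 0.025 after rescaling, and ran from -0.072 to 0.057 in the fits without a library. The corresponding ranges were -0.085 to 0.17 for FOS, -0.039 to 0.10 for FOSL2 and -0.22 to 0.27 for ATF3. JUNB stayed positive, and EGR1 and JUN negative, in all alternatives run, and with a pseudocount of 0.01 they reached 1.37, -1.56 and -1.14. Centring and the G and C trend were applied to tested genes only, so 7 members have no value there. Below 1 FPKM the few fragments behind a value limit what these libraries can show, and the cause of the sign changes was not tested.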
